A study of Mus musculus with 2 samples.

Results

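Coagulation and fibrinolysis genes were compared between CD31+ Prom1+ and CD31+ Prom1- endothelial cells of the normal mouse brain. The genes were taken from a list of 43 names grouped by their role in clotting or in the removal of clots. Multimerin1 is a second name of Mmrn1, so the list holds 42 genes. Of these, 39 had a probe set annotated to that gene alone, among 18194 such genes in all. Genes with such a probe set are called on the array below. Adamts13, F2rl1 and Serpine2 were not analysed here. CD31 (Pecam1) is an adhesion molecule of endothelial cells, and Prom1 encodes prominin-1, the membrane glycoprotein CD133.

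Both populations were obtained by FACS from the brain vasculature of C57BL/6 mice without tumors, and each was measured on 1 Affymetrix mouse expression array. The sources used here do not give the age or the number of the mice. With 1 array per population there was no replicate error, and no p-value was computed. Signals are given as multiples of the median signal of their array.

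Endothelium carries most of the machinery that keeps blood fluid. Thrombomodulin and the endothelial protein C receptor turn thrombin toward the activation of protein C, which with protein S inactivates factors V and VIII, while TFPI blocks the start of the cascade at tissue factor. Tissue-type plasminogen activator, released from endothelial cells, starts fibrinolysis, and von Willebrand factor, stored in the same cells, tethers platelets at a wound. Most clotting factors are made by the liver and reach the vessel with the blood.

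A gene was represented by its brightest probe set and counted as different at 2-fold, after signals were raised to a floor of 1.675 times the median. This floor is 100 on a scale where 500 is the average of the 2% trimmed means of the arrays. These means were 9.94 for Prom1+ and 6.81 for Prom1-. The floor is thus below 100 by the Prom1+ array alone and above 100 by the Prom1- array alone. Of the 39 genes, 21 came up to the floor on 1 array or both, or 53.8%, against 59.3% of all 18194 genes. Among these 21 genes, 8 were at least 2-fold higher in Prom1+ cells and 11 differed by less than 2-fold. The remaining 2, F13a1 and Thbs1, were under the floor in Prom1+ cells, so their folds are bounds, which did not reach 2-fold lower at this floor. With the floor at 50 in place of 100, both bounds passed 2-fold lower. The 8 genes were F5, Tfpi, Plaur, Tfpi2, F2r, Lman1, Procr and Gas6. They made up 38.1% of the 21, beside 28.2% of all genes at the floor that were 2-fold higher and 4.77% that were 2-fold lower. The 19 genes at the floor on both arrays had a median log2 ratio of 0.73 (Prom1+ over Prom1-), and all 9360 genes measured in this way had 0.69. The ratio was above 0 for 17 of the 19, or 89.5%, against 86.0% of all genes. The median of the list was close to that of the whole arrays, and its share of higher genes was not tested against theirs.

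**Figure D1:**
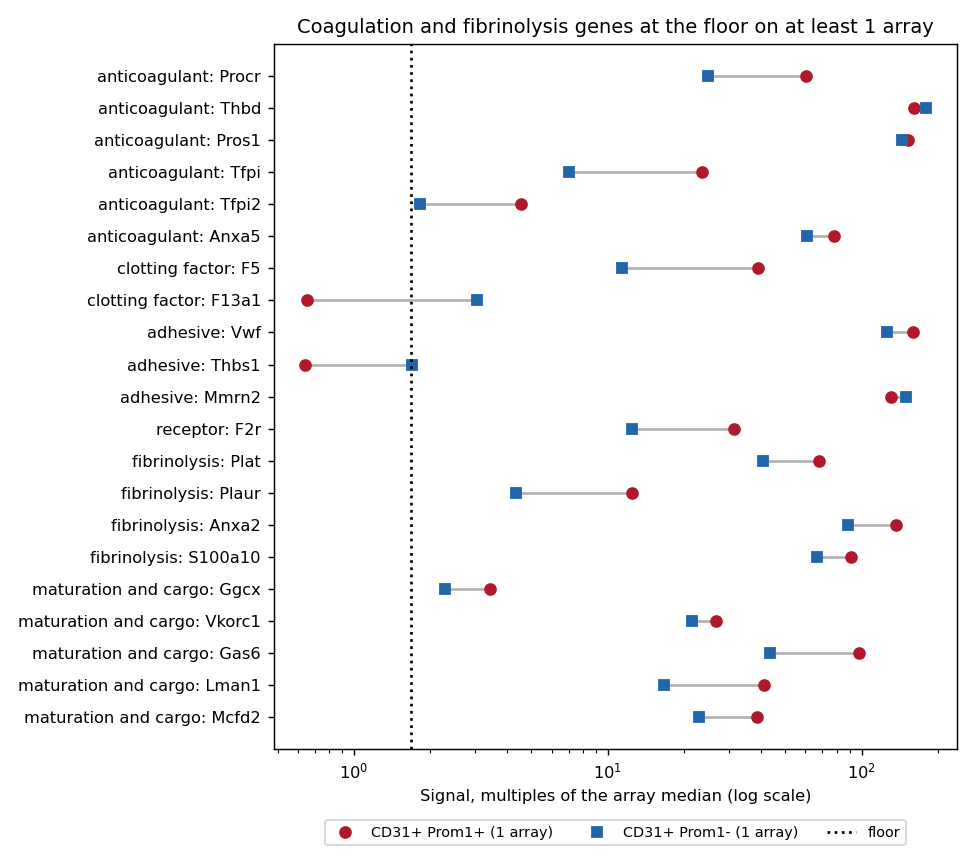
Signals of the 21 coagulation and fibrinolysis genes at the floor on at least 1 array, as multiples of the array median on a log axis. Red circles are the Prom1+ array and blue squares the Prom1- array (1 array each, no error bars), and the dotted line is the floor of 1.675. Only the 2 points of a gene can be compared with each other, and F13a1 and Thbs1 lie under the floor on the Prom1+ array.

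The general shift between the arrays depended on the signal. Among probe sets with a mean log2 signal between 3 and 4, the median log2 ratio was 0.87 and 40.2% were 2-fold higher in Prom1+ cells, whereas between 7 and 8 the median was -0.23 and 0% were. Among the coagulation genes, the higher ones likewise lay mostly at lower signals. Of 11 genes with a mean log2 signal under 6, a signal of 64 times the median, 7 were 2-fold higher, with ratios of 0.31 to 1.77 and a median of 1.31. Of 8 genes at or above it 1 was, namely Gas6, and the ratios spanned -0.20 to 1.15 with a median of 0.34. A loess curve of the ratio on the signal was therefore subtracted, and the remainder is called the ratio after loess. After loess, none of the genes was 2-fold higher by its brightest probe set, against 5.55% of all genes, and none was 2-fold lower, against 7.87%. Dimmer probe sets of Tfpi and F5 did pass 2-fold after loess. The median of the 19 genes was then 0.44 and that of all 9395 genes 0.03, and 16 of the 19 lay above 0, or 84.2%, against 53.2% of all genes. These figures are descriptions of 2 arrays and were not tested.

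**Figure D2:**
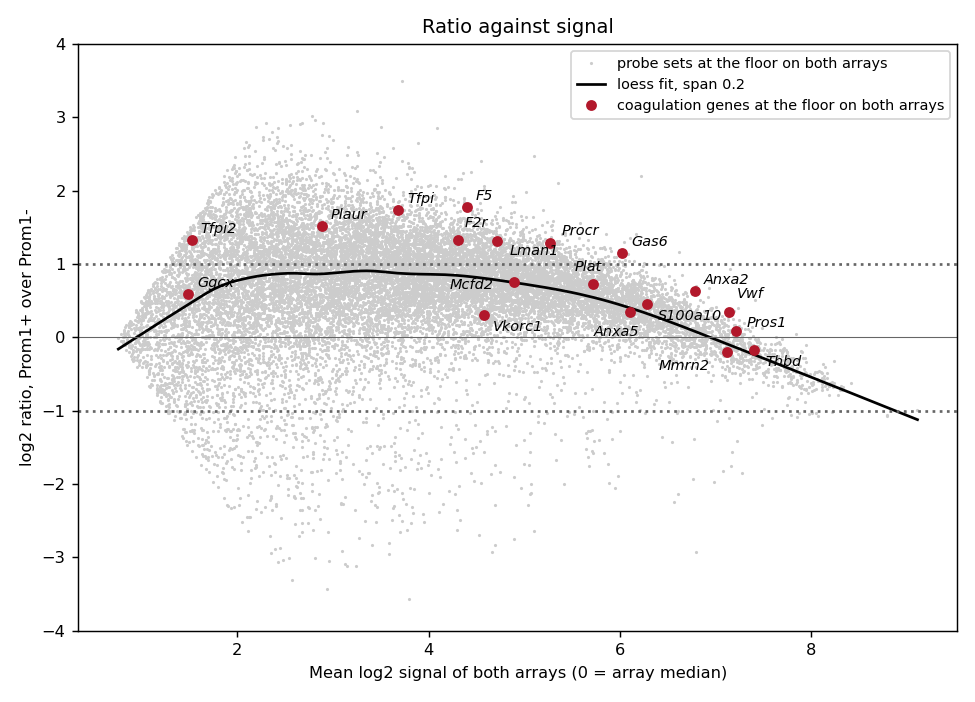
The log2 ratio of Prom1+ over Prom1- signals against the mean log2 signal of both arrays, for all probe sets at the floor on both (grey) and for the 19 coagulation genes measured on both (red, named). The black line is the loess curve with a span of 0.2, and dotted lines mark 2-fold. The cloud bends downward above a mean log2 signal of 5, and 16 of the 19 genes lie above the curve.

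The names Prom1+ and Prom1- are those of the sort. Prom1 itself had a signal of 159 in the array labelled Prom1+ and 196 in the array labelled Prom1-, a log2 ratio of -0.30, so its transcript did not separate the arrays in the order of their labels. Probe sets of the same gene had log2 ratios that spread with an SD of 0.54 over 3930 genes, the only spread available within this pair. It was taken before loess, so it includes part of the shift with signal. It holds no variation between sorts, amplifications or animals. The 12 endothelial markers were all at the floor on both arrays, and 11 differed by less than 2-fold. Of the markers of other cells, 9 of 11 for pericytes and smooth muscle, 7 of 11 for microglia and macrophages, 4 of 8 for fibroblasts and meninges, 1 of 7 for astrocytes, 2 of 5 for oligodendrocytes and 2 of 5 for neurons were at least 2-fold lower in Prom1+ cells. Some of these markers were below the floor on each array and could not be called. Those at the floor numbered, in the same order, 11, 10, 6, 4, 4 and 3. Of all genes at the floor, 4.77% were 2-fold lower. The oligodendrocyte markers went both ways, since Cnp was 2.84-fold higher, with 35.0 in Prom1+ cells and 12.3 in Prom1- cells. In such bulk samples, fewer cells of a type and less RNA per cell cannot be told apart.

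The promoters of Procr, F2r, Plaur and F5, which were among the 8 genes 2-fold higher, are shown as chosen examples. The windows of Tfpi, Tfpi2 and Gas6, also among the 8, are not printed. The windows run from 250 bases before to 50 after the gene start and come from RefSeq for GRCm38.p6. Capitals mark the AP-1 motif TGANTCA and the GC box GGGCGG on either strand, both of which were chosen after the windows had been read.
Procr (chr2:155750967-155751266, + strand): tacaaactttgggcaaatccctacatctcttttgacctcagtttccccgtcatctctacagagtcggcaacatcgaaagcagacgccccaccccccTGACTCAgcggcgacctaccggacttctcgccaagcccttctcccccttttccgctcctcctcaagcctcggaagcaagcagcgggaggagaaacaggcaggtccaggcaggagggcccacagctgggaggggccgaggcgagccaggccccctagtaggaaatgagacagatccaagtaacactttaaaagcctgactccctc
F2r (chr13:95618417-95618716, - strand): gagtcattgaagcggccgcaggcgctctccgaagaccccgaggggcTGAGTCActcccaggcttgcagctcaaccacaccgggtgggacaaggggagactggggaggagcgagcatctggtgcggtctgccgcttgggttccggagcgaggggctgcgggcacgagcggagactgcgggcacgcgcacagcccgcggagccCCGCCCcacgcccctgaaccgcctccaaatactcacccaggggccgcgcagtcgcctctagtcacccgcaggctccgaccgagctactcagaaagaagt
Plaur (chr7:24462233-24462532, + strand): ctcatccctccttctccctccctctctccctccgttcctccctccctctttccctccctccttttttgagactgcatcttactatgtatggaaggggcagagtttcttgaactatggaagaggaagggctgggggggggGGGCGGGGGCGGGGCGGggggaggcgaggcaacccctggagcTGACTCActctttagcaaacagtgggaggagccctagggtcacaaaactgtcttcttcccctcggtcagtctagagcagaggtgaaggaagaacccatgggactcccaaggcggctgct
F5 (chr1:164151585-164151884, + strand): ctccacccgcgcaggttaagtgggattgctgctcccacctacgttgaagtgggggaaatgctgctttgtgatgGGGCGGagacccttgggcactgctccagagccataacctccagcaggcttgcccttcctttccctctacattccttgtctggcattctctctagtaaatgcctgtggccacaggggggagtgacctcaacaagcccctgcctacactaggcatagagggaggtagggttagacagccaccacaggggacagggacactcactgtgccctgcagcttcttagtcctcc

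The AP-1 letters began 154 bases before the start of Procr, 204 bases before that of F2r and 69 bases before that of Plaur. The Plaur window held 3 overlapping or adjoining GC boxes, those of F2r and F5 1 each, and that of Procr none. Of the 8 genes 2-fold higher, 7 had a window, and in 4 of the 7 (Procr, F2r, Plaur and 1 of the Tfpi2 windows) it held TGANTCA. The windows of Tfpi and Gas6, which are not printed, held no TGANTCA, so the printed windows do not stand for all higher genes. Of the other 13 genes at the floor, 7 had a window and only that of Anxa2 held these letters. Since some genes have several windows, the counts per window were 4 of 10 for the higher genes and 1 of 8 for the others, beside 7.81% of all 32851 windows. GGGCGG was found in 7 of the 10 windows of the higher genes and in 5 of the 8 others, beside 35.7% of all windows. Both motifs were chosen after these windows had been read, so the counts cannot be weighed against the shares of all windows. The matches are a description of the letters, and no test was made.

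The anticoagulant genes, of the protein C and TFPI systems, the serpins and annexin A5, numbered 9. Of these, 3 were 2-fold higher in Prom1+ cells, 3 differed by less and 3 were below the floor on each array. This is 3 of the 6 at the floor, beside 28.2% of all genes at the floor. Tfpi encodes the Kunitz-type inhibitor of the tissue factor and factor VIIa complex and of factor Xa. Its signal was 23.4 in Prom1+ cells and 7.01 in Prom1- cells, a 3.34-fold difference and a log2 ratio of 0.86 after loess. A second Tfpi probe set had 13.3 and 2.82 (4.72-fold, 1.36 after loess) and another had 8.69 and 3.48 (2.50-fold, 0.45 after loess). The fourth had 8.58 in Prom1+ cells and 1.11 in Prom1- cells, under the floor, which makes it at least 5.12-fold higher, with a log2 bound of 2.08 after loess. All 4 Tfpi probe sets were thus 2-fold higher in Prom1+ cells as deposited, with folds that differed among themselves. Tfpi2, a related inhibitor whose targets include plasmin, had a signal of 4.55 in Prom1+ cells and 1.81 in Prom1- cells, the second barely above the floor.

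The endothelial protein C receptor, Procr, had a signal of 60.5 in Prom1+ cells and 24.7 in Prom1- cells, which left a log2 ratio of 0.62 after loess. Thrombomodulin (Thbd), its partner on the cell surface, had 160 in Prom1+ cells and 180 in Prom1- cells, a log2 ratio of -0.17. The sign of the Thbd ratio turned after loess, to 0.07. Protein S (Pros1), the cofactor of activated protein C, had 153 and 144, a log2 ratio of 0.09. Annexin A5 (Anxa5), which covers phosphatidylserine and so keeps clotting factors off the membrane, had 77.6 and 61.1, a 1.27-fold difference and -0.06 after loess. Of the components of the protein C pathway, then, the receptor differed by over 2-fold as deposited, while thrombomodulin and protein S differed by less than the spread between probe sets of a gene. Protein C itself (Proc), antithrombin (Serpinc1) and heparin cofactor II (Serpind1), which the liver secretes, were below the floor on each array.

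Clotting factors were mostly not measurable. Of 10 genes, 8 were below the floor on each array, namely F2, F3, F7, F8, F9, F10, F11 and F12. Tissue factor (F3), which starts the cascade, came nearest, with 0.718 in Prom1+ cells and 1.669 in Prom1- cells, just under the floor of 1.675. By the trimmed mean of the Prom1- array alone, its signal there would have been above the floor. Factor VIII (F8), which endothelial cells are known to make, had 0.470 and 0.0252. Both are levels at which no fold was given, and such signals do not show that the transcript was missing.

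Factor V (F5), the cofactor of factor Xa in the complex that cleaves prothrombin, was the exception. Its signal was 39.0 in Prom1+ cells and 11.4 in Prom1- cells, 3.42-fold higher, with a log2 ratio of 0.94 after loess. A second F5 probe set had 3.63 in Prom1+ cells and 1.21 in Prom1- cells, at least 2.17-fold higher, with a log2 bound of 1.06 after loess. By their brightest probe sets, F5 had the highest log2 ratio of the 39 genes both as deposited and after loess.

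F13a1, the subunit of factor XIII that crosslinks fibrin and is known from macrophages and megakaryocytes, ran the other way. It had 0.650 in Prom1+ cells, under the floor, and 3.04 in Prom1- cells, at least 1.81-fold lower. With the floor at 50 the log2 ratio was bounded at -1.86. The macrophage marker Mrc1 had 0.685 in Prom1+ cells and 4.26 in Prom1- cells, and the summed signal of the 11 microglia and macrophage markers was 101 in Prom1+ cells and 226 in Prom1- cells. Of 7 platelet and megakaryocyte markers, 4 reached the floor, on the Prom1- array only, with a summed signal of all 7 of 5.39 in Prom1+ cells and 13.03 in Prom1- cells. Among these Pf4 had 1.37 and 4.42, whereas Ppbp, Gp6 and Treml1 were below the floor on each array. The part of these cells in the F13a1 result was not tested.

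Factor V leaves the endoplasmic reticulum on a cargo receptor made of the lectin Lman1 and its partner Mcfd2, and in humans the loss of either protein lowers factors V and VIII in plasma. Lman1 had a signal of 41.4 in Prom1+ cells and 16.6 in Prom1- cells, 2.49-fold higher and 0.53 after loess. The other 3 Lman1 probe sets at the floor had 33.2 and 14.8 (2.25-fold), 8.63 and 4.68 (1.84-fold) and 6.42 and 3.64 (1.77-fold), so that only 2 of these 4 passed 2-fold. The last Lman1 probe set was below the floor on each array. Mcfd2 had 38.6 in Prom1+ cells and 23.0 in Prom1- cells, a 1.68-fold difference that was 0.00 on the log2 scale after loess.

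Several clotting proteins need gamma-carboxylation, a reaction that depends on vitamin K. The carboxylase Ggcx had 3.43 in Prom1+ cells and 2.28 in Prom1- cells, a 1.504-fold difference, and a second probe set had 3.02 and 1.24, at least 1.80-fold. Vkorc1, the reductase that recycles vitamin K and is blocked by warfarin, had 26.6 in Prom1+ cells and 21.5 in Prom1- cells, a log2 ratio of 0.31 that turned to -0.50 after loess. Gas6, a carboxylated ligand of the TAM receptors Tyro3, Axl and Mertk, had 97.2 in Prom1+ cells and 43.7 in Prom1- cells, 2.23-fold higher and 0.72 after loess. It was the only one of the 8 genes with a mean log2 signal above 6. Between 6 and 7, 1.06% of probe sets were 2-fold higher, and between 5 and 6, 11.9% were. Gas6 lay close to the boundary of these ranges. A second Gas6 probe set was below the floor on each array, at 0.553 and 0.572.

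The thrombin receptor PAR1 (F2r) is a G protein-coupled receptor that thrombin cleaves. It had a signal of 31.3 in Prom1+ cells and 12.5 in Prom1- cells, 2.51-fold higher and 0.48 after loess, and its second probe set had 16.2 and 4.97, 3.26-fold higher and 0.81 after loess. The receptors F2rl2 and F2rl3 were below the floor on each array. On the chromosome F2rl1 lies next to F2r, and 1 coding gene separates F2r from F2rl2.

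Of the adhesive proteins, Vwf and Mmrn2 differed by less than 2-fold by their brightest probe sets, and Thbs1 was only bounded. Von Willebrand factor (Vwf) had 159 in Prom1+ cells and 126 in Prom1- cells, 1.27-fold higher with a log2 ratio of 0.44 after loess. Mmrn2, an extracellular matrix protein of endothelium, had 130 in Prom1+ cells and 150 in Prom1- cells, a log2 ratio of -0.20. Its other probe sets had log2 ratios of -0.05, 0.46 and 0.98, so the 4 probe sets of Mmrn2 did not share a sign. Thrombospondin 1 (Thbs1), a platelet and matrix protein, had 0.639 in Prom1+ cells, under the floor, and 1.69 in Prom1- cells, at least 1.01-fold lower, with a log2 bound of -1.01 at a floor of 50. Mmrn1, which is known from platelets and endothelial cells, was below the floor on each array.

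**Figure D3:**
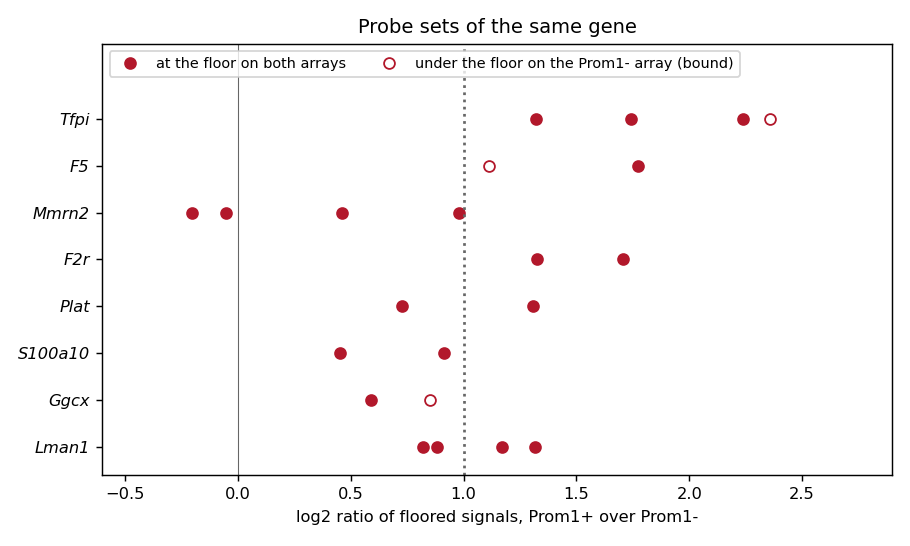
The log2 ratio of floored signals, Prom1+ over Prom1-, for each probe set at the floor of the 8 genes with more than 1 such probe set. Filled circles were at the floor on both arrays, open circles were under it on the Prom1- array and are bounds, and the dotted line marks 2-fold. Every probe set of Tfpi, F5 and F2r lies past the dotted line, 2 of 4 for Lman1 and 1 of 2 for Plat do, and those of Mmrn2 spread from -0.20 to 0.98.

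Fibrinolysis held 8 genes on the array, of which 1 was 2-fold higher in Prom1+ cells, 3 differed by less and 4 were below the floor on each array. The higher gene was 1 of 4 at the floor, near the share of 28.2% of all genes at the floor. The urokinase receptor (Plaur), which gathers urokinase at the cell surface, had a signal of 12.5 in Prom1+ cells and 4.35 in Prom1- cells, 2.87-fold higher and 0.65 after loess. Urokinase itself (Plau) was below the floor on each array. Tissue-type plasminogen activator (Plat) had 67.7 in Prom1+ cells and 40.9 in Prom1- cells, 1.66-fold higher and 0.18 after loess. Its second probe set had 30.4 and 12.3, 2.47-fold higher and 0.46 after loess, so the call for Plat depended on the probe set.

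Annexin A2 (Anxa2) and its partner S100a10 form a surface complex that brings plasminogen and its activator together. Anxa2 had 137 in Prom1+ cells and 88.7 in Prom1- cells, 1.54-fold higher and 0.54 after loess, while 2 further probe sets were dim on each array, below the floor. S100a10 had 91.1 and 66.6, 1.37-fold higher and 0.13 after loess, and a second probe set had 39.8 and 21.1, 1.89-fold higher. Plasminogen (Plg) and its inhibitor alpha-2-antiplasmin (Serpinf2), both liver products, and Serpinb2, an inhibitor of the plasminogen activators, were below the floor on each array. The 18 genes of the list below the floor on each array had signals of 0.01 to 0.753 in Prom1+ cells and 0.01 to 1.67 in Prom1- cells. Bacterial control probe sets, 27 in number and with no mouse target, reached at most 0.234 in Prom1+ cells and 0.276 in Prom1- cells.

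How firmly the 8 higher genes stood depended on the scaling of the arrays. With 5 other scalings, F5 was at least 2-fold higher in 4 of 5, with log2 ratios of 0.94 to 2.80, and Tfpi in 3 of 5, with 0.86 to 2.76. The other 6 genes were 2-fold higher in 2 of 5, namely with the endothelial markers or the hybridization controls set equal. None of the 8 changed sign, and their lowest log2 ratios lay between 0.48 and 0.94. The ratios of Thbd, Pros1, Vwf, Anxa5, Mmrn2, S100a10 and Vkorc1 changed sign among the scalings. F13a1, whose ratios are bounds set by the floor, was lower in Prom1+ cells in all 5, with log2 ratios of -1.16 to -0.35, and was 2-fold lower in 2 of them.

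**Figure D4:**
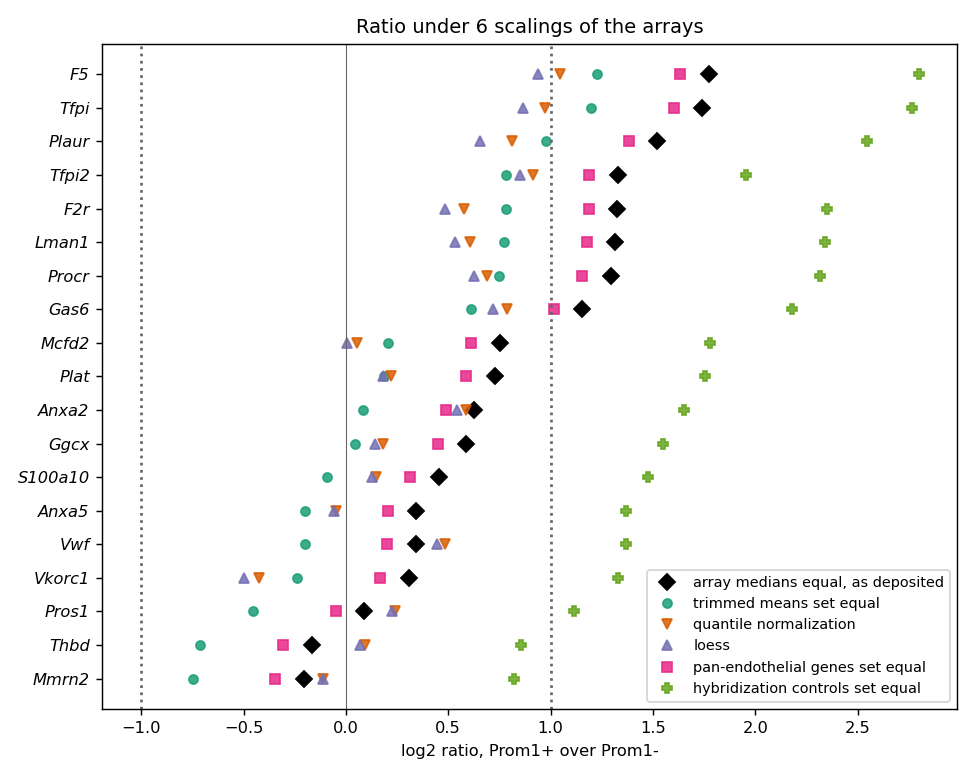
Log2 ratios, Prom1+ over Prom1-, of the 19 genes measured on both arrays under 6 scalings, with the deposited one as black diamonds. Dotted lines mark 2-fold. The hybridization controls (green) move every gene upward, and loess (purple) leaves no gene past 2-fold, with F5 at 0.94.

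Other genes of the pathway were taken from a list of 36, of which 34 were on the array and 19 reached the floor. In Prom1+ cells 1 was 2-fold higher, beside 28.2% of all genes, and 2 were lower, beside 4.77%. A further 12 measured on both arrays differed by less, and 4 had only bounds, which did not reach 2-fold. The median log2 ratio of those measured on both arrays was 0.63, against 0.69 for all genes. The higher gene was Vkorc1l1, a paralog of Vkorc1 with the same activity, which had 24.2 in Prom1+ cells and 9.63 in Prom1- cells (2.51-fold, 0.47 after loess). The lower genes were Axl, a receptor of Gas6, with 3.93 in Prom1+ cells and 13.8 in Prom1- cells, and Serpini1 (neuroserpin, an inhibitor of tissue-type plasminogen activator), with 6.61 and 19.0. Their log2 ratios of -1.81 and -1.52 were -2.67 and -2.42 after loess. Thrombospondin 2 (Thbs2), with 5.57 in Prom1+ cells and 6.68 in Prom1- cells, was also 2-fold lower after loess, at -1.14. Of the other receptors of Gas6, Mertk had 63.3 in Prom1+ cells and 39.9 in Prom1- cells, 1.59-fold higher and 0.10 after loess, and Tyro3 was below the floor on each array. Neuroserpin is known from neurons, whose 5 markers had a summed signal of 1.09 in Prom1+ cells and 19.6 in Prom1- cells, and the 11 markers of pericytes and smooth muscle summed to 317 and 1028. The part of these cells in the Axl and Serpini1 results was not tested. Fibrinogen (Fga, Fgb and Fgg), the precursor of fibrin, was below the floor on each array.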

How the data were processed

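RNA of CD31+ Prom1+ and CD31+ Prom1- cells was amplified and labelled with biotin, hybridized to 1 array per population, scaled to a target of 500 and normalized in GeneSpring by the authors. MAS5 is named in the submitters' processing notes without its version. Each deposited value is a log2 signal relative to its array's median, with a median of 0 in both columns and a lowest value of -6.64, or 0.01 times the median. Detection calls were not found in those sources.

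Signals were taken back from log2 to multiples of the median. To express the floor of 100 in these units, the 2% trimmed means of the arrays were averaged and set to 500. Where 1 of the signals lay under the floor the fold is a lower bound, and where both did no fold was computed. The number of arrays, 1 per population, limits the precision, so no test was made. The platform annotation names 35890 of 45101 probe sets, 34958 of them with 1 symbol. All 64 probe sets of the genes described matched a gene of the GRCm38.p6 table, used for names and neighbours only. Every gene of the list at the floor was named with both signals and the rest in groups. Among other pathway genes, those 2-fold different were named. Members and lists were chosen with earlier results of these data known. Red cell, neutrophil and T cell, and hepatocyte markers were also listed. Of 2 red cell genes Alas2 was 2-fold higher (7.51 in Prom1+ and 2.33 in Prom1- cells), and the 3 neutrophil and T cell genes did not reach the floor. Of 3 genes listed for hepatocytes, Ttr was 2-fold lower (210 in Prom1+ and 426 in Prom1- cells). Alb was below the floor on each array, and Apoa1 had 1.77 in Prom1+ cells and 0.327 in Prom1- cells. The source of the Ttr signal was not tested.

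Alternatives were floors of 50, 200 and none, folds of 1.5 and 3, 5 scalings (equal trimmed means, quantile, loess with a span of 0.2, endothelial markers, hybridization controls), the mean over probe sets, and probe sets without _x_at and _s_at names. The rules were run on simulated arrays with known changes planted in genes well above the floor. Changes near the floor and false calls among unchanged genes were not checked. The work was done in Python 3.11.15 with pandas 2.3.3, numpy 2.4.6 and scipy 1.17.1, loess came from statsmodels 0.14.6, and matplotlib 3.10.9 drew the plots.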

Additional observations from a re-analysis of the deposited data

How the results depend on the processing

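Of the genes of the list, 8 were 2-fold higher in Prom1+ cells and 0 were counted as 2-fold lower, with a median log2 ratio of 0.73. The higher count was 2 at 3-fold, 2 with equal trimmed means, 1 after quantile normalization, 0 after loess and 17 with the hybridization controls set equal, whose 18 probe sets had a median log2 ratio of -1.02. Setting it to 0 raised every ratio before the floor was applied, and ratios near the floor rose by less, as for Tfpi2 (1.33 as deposited, 1.95 with the controls). The lower count was 2 with a floor of 50 (F13a1 and Thbs1), 6 with no floor, and 1 (F13a1) at 1.5-fold, 1 with equal trimmed means and 1 after quantile normalization. The median was 0.18 with equal trimmed means and 1.75 with the hybridization controls. Over all genes, the counts of higher and lower genes were 3045 and 515 as deposited, 879 and 867 with equal trimmed means, 689 and 841 after quantile normalization, 599 and 849 after loess, and 8644 and 189 with the hybridization controls. They were 5891 and 815 at 1.5-fold, 712 and 256 at 3-fold, 2510 and 333 with the mean over probe sets, 2566 and 301 with a floor of 200, 3381 and 827 with a floor of 50, and 5124 and 3388 with no floor. In the alternatives not named for them, the higher count was 6 to 12, the lower count 0 and the median 0.34 to 0.81. The median was above 0 in every alternative in which it was computed. The counts of higher and lower genes of the list were 0 and 0 after loess. After quantile normalization they were 1 and 1, so their contrast was lost in both settings. Of the ratios of single genes, 62 moved by more than the spread between probe sets and 140 did not. Many of these outcomes were fixed by the setting. A change of floor leaves genes well above it unchanged, and a constant shift moves all such genes alike. The counts therefore do not measure how stable the ratios were. No paired analysis was possible because each population had 1 array. The arrays give no spread between animals, and a signal under the floor limits what can be said of 18 genes.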

Other observations

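Other genes of the pathway that did not reach 2-fold fell into groups. Klf2 and Klf4 are transcription factors known to raise thrombomodulin in endothelium. Klf2 had a signal of 126 in Prom1+ cells and 114 in Prom1- cells, and Klf4 had 122 in Prom1+ cells and 163 in Prom1- cells, log2 ratios of 0.14 and -0.42. Both differed by less than 2-fold, as Thbd did. The annexins Anxa1, Anxa3, Anxa4 and Anxa6, which bind phospholipids when calcium is present, were 1.55-fold, 1.59-fold, 1.94-fold and 1.76-fold higher in Prom1+ cells as deposited. After loess their log2 ratios were -0.16, 0.38, 0.38 and -0.02, so the sign turned for Anxa1 and Anxa6. Of the disulfide isomerases that act on clotting proteins at the cell surface, P4hb had 129 in Prom1+ cells and 127 in Prom1- cells, and Pdia3 had 80.4 in Prom1+ cells and 51.9 in Prom1- cells, with log2 ratios of 0.05 and 0.19 after loess. The plasminogen receptor Plgrkt had 33.3 in Prom1+ cells and 18.4 in Prom1- cells, 1.81-fold higher as deposited and 0.06 on the log2 scale after loess. The scramblase Ano6, which brings phosphatidylserine to the outer face of the membrane, had 54.1 in Prom1+ cells and 55.9 in Prom1- cells, a log2 ratio of -0.05 that was -0.57 after loess. These values have no replicate, and none of them was tested.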
